A study of Mus musculus with 8 samples.

Results

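SOX proteins are transcription factors that bind DNA through a high-mobility-group (HMG) box, and 8 of their genes were examined here for CpG methylation in nephron progenitors of the mouse embryo. The genes were taken from families with roles in organ formation. They are Sox1 and Sox2 of the SoxB1 group, Sox4, Sox11 and Sox12 of the SoxC group, and Sox8, Sox9 and Sox10 of the SoxE group. Each gene was measured over its body plus 5 kb at each end. This gave 468 CpGs, of 441994 in the whole data set, and 27 tiles of 1 kb, of 36513. A CpG counted as measured when it had at least 10 reads in all 8 libraries, and a tile when it held at least 3 such CpGs.

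The study asked whether restricting the food of pregnant mice changes DNA methylation in the nephron progenitors of their offspring. Methylation was read by reduced representation bisulfite sequencing (RRBS), which usually cuts the genome at CCGG and so samples CpG-rich DNA, on genomic DNA of cells sorted from kidneys at stage E17.5. All embryos were CD1 outbred mice heterozygous for the transgene Tg(Six2-EGFP/cre), from transgenic males and wild-type CD1 females aged 8 to 10 weeks, and the sorted cells were those with green fluorescence driven by Six2, a gene of nephron progenitors. The dams of 4 libraries (calorie-restricted, CRD) received 70% of the average daily intake, and those of the other 4 (unrestricted, URD) ate freely. The transgene was thus shared by both groups, and the sexes were not separated. Whether each library is 1 litter or a pool is not stated in the labels, so each library was taken as 1 unit. Permutation p-values and those of gene-region levels measure the spread between these libraries. P-values from read counts do so only where that spread exceeds counting error.

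CpG methylation is the addition of a methyl group to the cytosine of a CG pair, and dense CpG clusters at gene starts, called CpG islands, usually lack it in normal cells. SoxB1 proteins keep neural progenitors undifferentiated, and Sox2 does the same for pluripotent cells. SoxC proteins promote differentiation in neurons and in mesenchymal organs such as the kidney. SoxE proteins act in neural crest, glia and cartilage and in the testis, and in the kidney Sox8 and Sox9 act in the branching of the ureteric bud. Sox4, Sox8, Sox9, Sox11 and Sox12 are compared below as genes expressed in the developing kidney, with Sox1, Sox2 and Sox10 as neural genes. No RNA was measured, so the expression of these genes in the sorted cells was not examined.

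The 250 bases before the start are shown for the 3 genes with measured CpGs there. Those CpGs were almost free of methylation. The sequences are from RefSeq (build GRCm38.p6, whose coordinates are those of mm10), written 5′ to 3′ on the strand of the gene. Capitals mark the CpGs measured in all 8 libraries. Sox12 lies on the minus strand (chr2:152398047-152398296), Sox2 on the plus strand (chr3:34649745-34649994) and Sox11 on the minus strand (chr12:27342719-27342968).
Sox12: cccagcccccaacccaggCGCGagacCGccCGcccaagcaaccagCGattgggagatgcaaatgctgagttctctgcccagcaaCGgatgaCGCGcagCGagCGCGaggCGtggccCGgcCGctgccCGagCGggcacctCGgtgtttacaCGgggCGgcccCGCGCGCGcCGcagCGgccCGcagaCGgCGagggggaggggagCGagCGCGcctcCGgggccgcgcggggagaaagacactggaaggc
Sox2: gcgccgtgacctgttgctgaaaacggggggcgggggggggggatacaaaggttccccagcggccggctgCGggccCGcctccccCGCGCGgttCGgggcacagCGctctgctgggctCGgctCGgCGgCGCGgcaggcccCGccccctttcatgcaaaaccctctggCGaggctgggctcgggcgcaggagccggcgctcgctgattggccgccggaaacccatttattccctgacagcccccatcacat
Sox11: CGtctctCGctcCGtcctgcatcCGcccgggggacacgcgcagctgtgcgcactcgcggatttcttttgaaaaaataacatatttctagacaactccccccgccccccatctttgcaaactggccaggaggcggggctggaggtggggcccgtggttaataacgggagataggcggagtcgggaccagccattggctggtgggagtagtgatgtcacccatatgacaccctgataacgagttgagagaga
Upstream of Sox12, 32 of 35 CpGs were measured, and the highest of them had a mean level of 0.321%. Upstream of Sox2, 14 of 27 were measured and the highest reached 0.417%. None of the 4 measured of 17 upstream of Sox11 had a methylated read. Of the members, 6 had a promoter entry, and Sox9 and Sox10 had none. No CpG was measured inside the entries of Sox1, Sox4 and Sox8. Over the whole 300 bases of an entry (250 before and 50 after the start), the ratio of observed to expected CpGs was 1.07 for Sox12, 1.07 for Sox1, 0.819 for Sox2, 0.817 for Sox11, 0.679 for Sox4 and 0.647 for Sox8. The median over 31396 promoters was 0.389, so all 6 were richer in CpGs than the median promoter. CCGG, the usual cutting site of RRBS, was present in 5 of 6, against 53.5% of all promoters, and was missing from that of Sox4. CCAAT, searched on both strands, was present in 5 of 6, against 37.3% of all promoters. The SOX-type motifs AACAAT and AACAAAG and the TATA motif TATAAA were in none of the 6, and in 10.6%, 5.80% and 13.6% of all promoters. A match is a description of the letters and not a binding site.

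The members were mostly unmethylated. Of the 468 CpGs, 449 (95.9%) had a mean level below 20%, against 80.2% of CpGs in the whole data set. Another 13 lay between 20 and 80%, and 6 were at 80% or more. No methylated read was seen in any library at 333 of them. Of the 27 tiles, 21 were below 1%, and none of the 27 held the methylated CpGs upstream of Sox4. The remaining methylation was held by 4 genes, Sox10, Sox8, Sox4 and Sox12, which had all 27 CpGs with a mean of 5% or more.

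**Figure D1:**
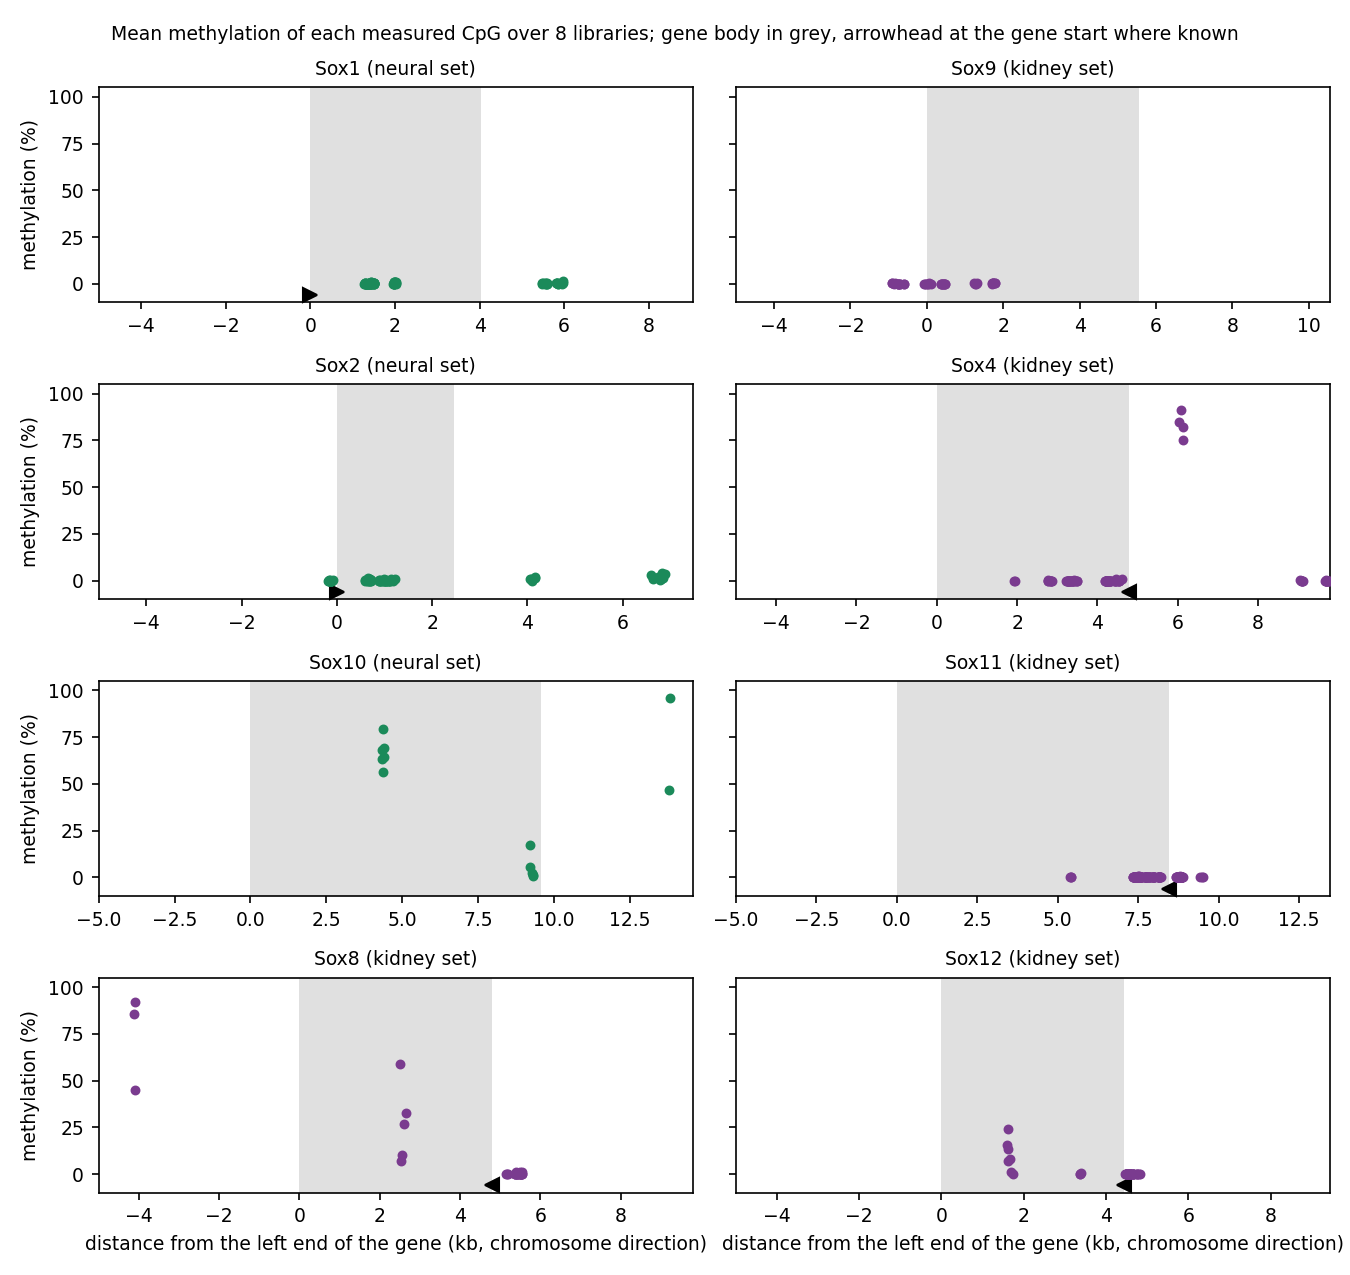
Each point is 1 measured CpG, placed by its distance in kb from the left end of the gene (x axis, chromosome direction) and by its mean methylation over the 8 libraries (y axis, %). Grey marks the gene body, an arrowhead the start of the gene and its direction where the tables give it, and colour the neural (green) or kidney (purple) set. Points away from 0 are seen in Sox10, Sox8, Sox4 and Sox12, and in Sox8, Sox4 and Sox12 they lie off the gene start, which is not given for Sox10.

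Sox10, the regulator of neural crest and glia, had the highest level of the 8 genes, although its region (chromosome 15, gene from 79154913 to 79164490) also overlaps Polr2f and Gm10863. The mean over its 13 CpGs was 43.2, 37.5, 43.0 and 46.3% in restricted libraries 1 to 4. In unrestricted libraries 1 to 4 it was 47.1, 47.5, 40.7 and 46.0%. The groups overlapped, with means of 42.5% ± 3.67 (SD, n = 4) and 45.3% ± 3.16 (SD, n = 4). The difference was -2.79 percentage points (95% interval -8.08 to 2.50). With at least 20 reads it was 0.245 points, over 5 CpGs that all lie at the right gene end. It was -0.153 points with at least 5 reads (46 CpGs) and -5.71 points with summed reads of the 13 CpGs. Without restricted library 2 it was -1.13 points, without restricted libraries 1 and 2 -0.634 points, and without unrestricted library 3 -4.34 points. Its adjusted p in limma, a linear model with variances moderated across all gene regions, was 0.914, and the exact two-sided permutation p was 0.314. The smallest p that 70 splits of 8 libraries allow is 0.0286.

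Methylation within Sox10 was uneven. The tile from 79159001 to 79160000 in the gene body held 6 CpGs with mean levels from 56.4 to 79.4%. Its level was 67.4, 56.4, 63.0 and 66.7% in the restricted libraries and 73.1, 75.2, 60.9 and 71.5% in the unrestricted ones. Unrestricted library 3 lay within the restricted range, and the other unrestricted libraries lay above it. The group means were 63.4% ± 5.01 and 70.2% ± 6.39 (SD, n = 4 each), and the difference of -6.80 points had an adjusted p of 0.773 in the logistic model of methylated reads (exact permutation p = 0.171). At the right end of the gene, a tile of 5 CpGs from 79164001 averaged 5.61% ± 2.72 in restricted and 5.36% ± 1.86 in unrestricted libraries (SD, n = 4 each). Its CpG at 79164123 stood at 17.52% and its CpG at 79164216 at 0.524%, so levels fell within that tile. Beyond the gene, the CpG at 79168718 averaged 47.0% and the next measured one, at 79168737, 95.8%.

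A single Sox10 CpG, at 79159305 in the body tile, had groups that did not overlap, and it was picked out after its values were seen. It was at 58.3, 46.2, 65.2 and 56.3% in the restricted libraries and at 73.7, 71.8, 73.9 and 71.1% in the unrestricted ones. All restricted libraries were thus below all unrestricted ones, with means of 56.5% ± 7.88 and 72.6% ± 1.41 (SD, n = 4 each). Each value rested on 13 to 39 reads, and the adjusted p in the logistic model was 0.622. Such separation was found at 1 of the 135 tested member CpGs (0.741%), against 1.8% of all tested CpGs. It cannot occur where both groups hold a library at 0, and 95.9% of measured member CpGs were below 20%, against 80.2% in the whole data set. The Sox10 CpG of smallest p was a different one, at 79164181. It was at 6.25, 2.63, 0 and 8.70% with restriction and at 2.13, 0, 0 and 0% without, with overlapping groups and an adjusted p of 0.622.

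Sox8, a SoxE gene that acts with Sox9 in kidney branching and in the testis, was the second highest. Its region (chromosome 17, gene from 25565893 to 25570686, minus strand, overlapping Cerox1) had levels of 12.1, 10.7, 12.2 and 11.7% in the restricted libraries and 12.8, 12.5, 10.3 and 11.2% in the unrestricted ones. The groups overlapped and their means were alike, at 11.7% ± 0.699 and 11.7% ± 1.16 (SD, n = 4 each). The difference of -0.0202 points had a 95% interval from -1.54 to 1.495. These averages joined 3 stretches of unlike level. Downstream of the gene, the 3 CpGs of the tile from 25561001 were methylated at 72.0% ± 3.58 in restricted and 76.5% ± 2.23 in unrestricted libraries (SD, n = 4 each, adjusted p = 0.817 in the logistic model). In the gene body, the 5 CpGs of the tile from 25568001 averaged 28.6% ± 5.18 and 26.8% ± 6.82 (SD, n = 4 each). The 23 CpGs before the gene start, in the tile of smallest p, from 25571001, averaged 0.280% ± 0.291 with restriction. They had no methylated read without (adjusted p = 0.760 in the logistic model).

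The Sox8 CpG of smallest p lay in the body, at 25568407. Its levels were 63.2, 50, 47.1 and 50% with restriction and 71.4, 74.1, 50 and 66.7% without. Unrestricted library 3 equalled the value of restricted libraries 2 and 4, so the groups overlapped. The difference of -13.0 points had an adjusted p of 0.622 in the logistic model, and the values rested on 10 to 33 reads. Another CpG of the same tile, at 25568487, went the other way, with 32.2% ± 10.3 and 21.7% ± 11.2 (SD, n = 4 each).

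Sox4, a SoxC gene of many progenitor populations, was unmethylated over its body and carried an isolated methylated stretch upstream. The gene lies on chromosome 13 from 28948919 to 28953699, on the minus strand, and its region overlaps Gm46405 and Gm46406. The 63 CpGs of the body averaged 0.0312%. Among the measured Sox4 tiles, none of which held the methylated stretch, that from 28953001 had both the smallest p and the highest level. It was at 0.0994% ± 0.0780 (SD, n = 4) with restriction and at 0 without (adjusted p = 0.773 in the logistic model). The 4 CpGs at 28954958, 28954999, 28955042 and 28955049, which lie 1259 to 1350 bp upstream of the start, averaged 85.0, 91.2, 74.98 and 82.1%. They lay in no measured tile and outside the start window, so they were tested singly and within the gene region only. The nearest measured CpGs on either side were at 0.625% (28953530, 169 bp downstream of the start) and 0.240% (28957966, 4267 bp upstream). The change from near 0 to near 80% thus fell in gaps of 1428 and 2917 bp without a measured CpG. At 28954958, the Sox4 CpG of smallest p, the levels were 93.5, 76.9, 100 and 80% with restriction and 81.3, 80.4, 86.8 and 81.1% without. The groups overlapped, and the adjusted p was 0.622 in the logistic model. With 84 CpGs in all, the region of Sox4 averaged 4.05% ± 0.233 in restricted and 3.95% ± 0.178 in unrestricted libraries (SD, n = 4 each). Their difference of 0.107 points had a 95% interval from -0.241 to 0.455.

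Sox12, the third SoxC gene, had its methylation in the body. The gene lies on chromosome 2 from 152393611 to 152398046 on the minus strand. The 7 CpGs of the tile from 152395001 had levels of 12.6, 11.8, 8.22 and 8.79% in the restricted libraries and 5.91, 8.93, 10.6 and 12.9% in the unrestricted ones. Both the lowest and the highest value were unrestricted. The means were 10.3% ± 2.15 and 9.59% ± 2.93 (SD, n = 4 each, adjusted p = 0.919 in the logistic model). The Sox12 tile of smallest p, from 152398001, had 0.0106% ± 0.0212 and 0.0555% ± 0.0429 (SD, n = 4 each, adjusted p = 0.773 in the logistic model). The Sox12 CpG of smallest p, at 152395288, had a level of 9.52% in restricted library 3 and of 0 in the other 7 libraries. The region of 48 CpGs stood at 1.53% ± 0.302 and 1.44% ± 0.437 (SD, n = 4 each).

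**Figure D2:**
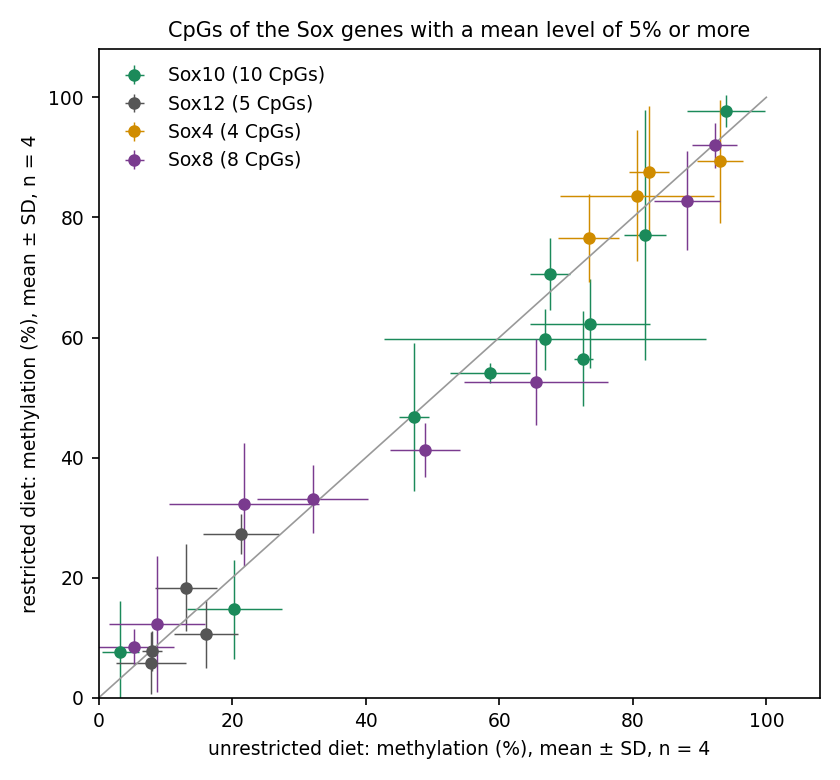
Each point is 1 of the 27 CpGs with a mean level of 5% or more, with its mean methylation (%) in unrestricted libraries on the x axis and in restricted libraries on the y axis. Bars are the SD over 4 libraries and the grey line marks equal levels. Of these, 7 of 10 Sox10 points, 4 of 8 Sox8 points, 3 of 5 Sox12 points and 1 of 4 Sox4 points lie under it.

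Sox11 and Sox9 had the lowest means, although the rank of Sox9 depended on the CpGs that entered. Sox11, a SoxC gene of neurons and of kidney mesenchyme, lies on chromosome 12 from 27334268 to 27342718 on the minus strand and overlaps Gm30855 in its region. Its 113 CpGs averaged 0.0378, 0, 0.0197 and 0% in the restricted libraries and 0.127, 0.0260, 0.0268 and 0.0389% in the unrestricted ones. Unrestricted library 1 was the highest, and restricted library 1 lay among the other unrestricted ones. The difference was -0.0404 points (95% interval -0.107 to 0.0260), with a limma adjusted p of 0.914 and an exact permutation p of 0.114. All 4 Sox11 tiles were lower with restriction, the largest difference being -0.238 points in the tile from 27339001, where 1 library alone had methylated reads. The Sox11 CpG of smallest p, at 27343064, was likewise methylated in unrestricted library 1 alone, at 4.65%.

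Sox9, which directs cartilage and testis formation and acts in ureteric branching, lies on chromosome 11 from 112782210 to 112787757, overlapping Gm11681 in its region. Its 39 CpGs averaged 0.0777, 0.0827, 0.401 and 0% in the restricted libraries and 0.0986, 0.336, 0 and 0% in the unrestricted ones. The groups overlapped, with a difference of 0.0317 points (95% interval -0.228 to 0.292). The tile of the highest level, from 112783001, reached 1.61% in restricted library 3 and 1.11% in unrestricted library 2 and had an adjusted p of 0.925 in the logistic model. The tile of smallest p, from 112782001, had methylated reads in unrestricted library 1 alone, at 0.185%. At the CpG of smallest p, 112783955, restricted library 3 stood at 3.13% and the other 7 libraries at 0.

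The SoxB1 genes were also below 1%. Sox1, a gene of neural progenitors on chromosome 8 from 12395519 to 12399555 (plus strand, overlapping Sox1ot), averaged 0.303, 0.215, 0.306 and 0.222% over 71 CpGs in the restricted libraries. The unrestricted libraries stood at 0.161, 0.306, 0.192 and 0.242%, within much the same range. The difference of 0.0366 points had a 95% interval from -0.0588 to 0.132. The tile of smallest p, from 12396001, had 0.213% ± 0.0554 and 0.148% ± 0.118, and the one of the highest level, from 12401001, had 0.218% ± 0.348 and 0.389% ± 0.232 (SD, n = 4 each). The CpG of smallest p, at 12396962, was at 1.49, 2.78, 2.78 and 0% with restriction and at 0 in all unrestricted libraries, with an adjusted p of 0.622 in the logistic model. The start of Sox1 had too few measured CpGs for a value of its own. Adding the reads of each CpG there at any coverage gave 1 methylated of 522 over all libraries (0.192%), a read counting once per CpG.

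Sox2, the gene of pluripotent and neural progenitor cells on chromosome 3 from 34649995 to 34652461 (plus strand, inside the region of Sox2ot), averaged 0.655, 0.588, 0.517 and 0.213% over 69 CpGs in the restricted libraries. In the unrestricted libraries it was at 0.347, 0.271, 0.597 and 0.557%. The lowest value of all was a restricted library, and the groups overlapped (difference 0.0504 points, 95% interval -0.225 to 0.326). Levels were higher downstream of the gene than in its body or before its start. The body averaged 0.231% and the 14 CpGs measured before the start 0.0789%. Downstream, the tile from 34654001 averaged 0.851%, and the tile from 34656001, the highest, had 2.17% ± 0.980 in restricted and 1.77% ± 0.736 in unrestricted libraries (SD, n = 4 each). The tile of smallest p, from 34649001, held the gene start. It had methylated reads in restricted libraries 1 (0.156%) and 3 (0.477%) only, with an adjusted p of 0.773 in the logistic model. The CpG of smallest p, at 34651128, was methylated only in unrestricted libraries 3 (3.03%) and 4 (5.56%).

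**Figure D3:**
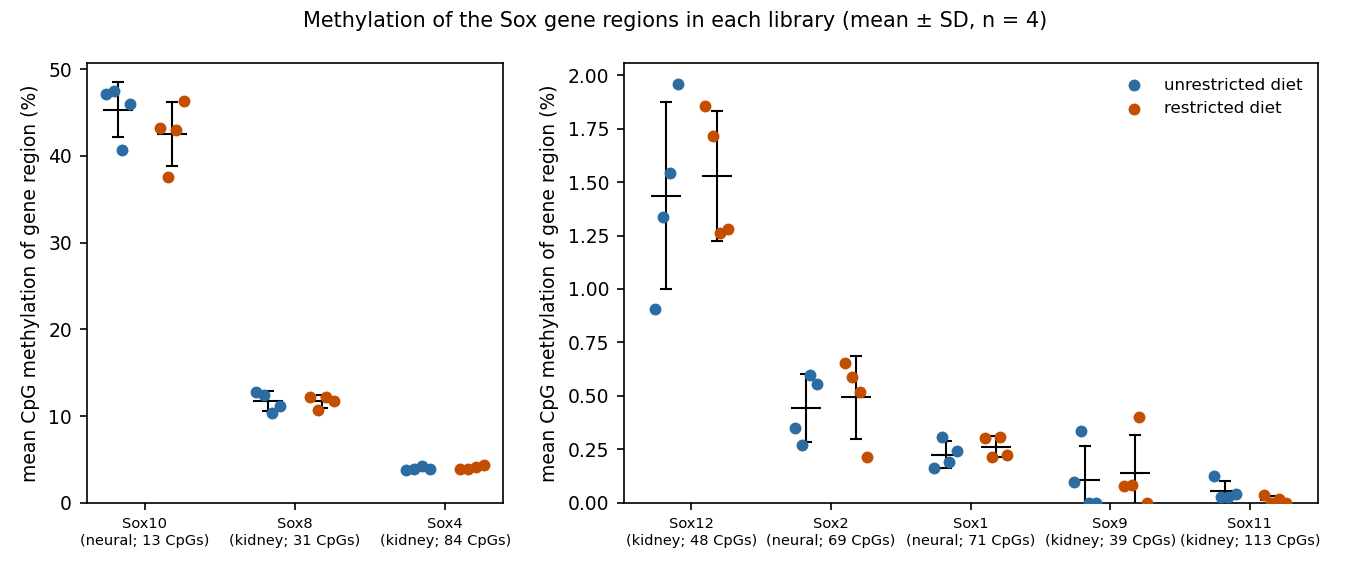
Each point is the mean CpG methylation (y axis, %) of a Sox gene region in 1 library, for the genes on the x axis with their set and number of CpGs; blue is the unrestricted and orange the restricted diet, and bars give the mean and SD of 4 libraries. The right panel has its own scale, up to about 2%, and the groups overlap in all 8 genes.

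The order of the 8 region levels was Sox10 (43.9%), Sox8 (11.7%), Sox4 (4.00%), Sox12 (1.48%), Sox2 (0.468%), Sox1 (0.243%), Sox9 (0.124%) and Sox11 (0.0346%). The ranges of Sox12 and all higher genes were separate from each other over the 8 libraries, and each of Sox2, Sox1, Sox9 and Sox11 overlapped its neighbour in range. The median over all 19429 measured gene regions was 5.06%, and 35.6% of them were below 1%. Levels of single genes depended on which CpGs entered. With at least 5 reads, the mean of Sox8 rose to 28.6% over 63 CpGs and that of Sox10 fell to 30.0% over 46 CpGs, which brought the pair close together. The mean of Sox9 moved from 0.124 to 1.39% over 55 CpGs, above those of Sox1 (0.344%), Sox2 (0.449%) and Sox12 (0.915%). With flanks of 10 kb it was 2.29% over 40 CpGs, against 39 CpGs with flanks of 5 kb. That rise came only from what the wider flanks added, outside the region studied here. With at least 20 reads, 5 CpGs of Sox10 were left, all at the right gene end, and their mean was 5.48%. Sox4 (0.0520%) and Sox12 (0.0395%) were then lower than Sox9 (0.0548%). CpGs with 10 reads in some libraries but not all numbered 56 in Sox8, with 22 at 80% or more, and 56 in Sox10, with 13 at 80% or more. A level between 0 and 100% in a sorted population may come from a share of cells or from a share of alleles, and these cannot be told apart here.

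The kidney-expressed genes had a lower average than the neural genes, and this rested on Sox10. The mean of the 5 kidney genes was 3.47% over the 8 libraries (range 3.21 to 3.61%), and that of the 3 neural genes 14.9% (12.8 to 16.0%). The kidney set minus the neural set ran from -12.4 to -9.51 points over the 8 libraries. Without Sox10, the remaining neural genes averaged 0.356%, and the kidney set was higher by 2.82 to 3.32 points. This was not general to the kidney genes. Sox8 (11.7%) and Sox4 (4.00%) were the highest of them, and Sox9 (0.124%) and Sox11 (0.0346%) were below both Sox1 (0.243%) and Sox2 (0.468%). Including CpGs with at least 5 reads, the contrast was -3.60 points with Sox10 and 6.26 points without it, and over gene bodies alone -6.24 and 6.66 points. The sign of the contrast was therefore set by 1 gene, and no test was made, since genes of a set are not replicates. By protein group, the averages were 0.356% for SoxB1, 1.84% for SoxC and 18.6% for SoxE. SoxE itself ran from 0.124% in Sox9 to 43.9% in Sox10. The kidney set averaged 3.48% ± 0.158 in restricted and 3.45% ± 0.174 in unrestricted libraries (SD, n = 4 each). The neural set stood at 14.4% ± 1.18 and 15.3% ± 1.02 (SD, n = 4 each). Both pairs of groups overlapped. The difference of the neural set, -0.902 points, was -0.0625 points with at least 5 reads and -1.89 points with summed reads. It was -0.352 points without restricted library 2, -0.224 points without restricted libraries 1 and 2 and -1.41 points without unrestricted library 3.

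For 3 genes outside the members, the region level over 8 libraries was closest to that of Sox10, by root mean square difference among 7679 genes with a similar number of CpGs. They were Ina (2.62 points), Pklr (2.70 points) and Dnah7b (2.74 points).

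No unit of the members passed the test for diet, at an adjusted p under 0.05 over all units tested. This was so for 27 tiles (0.0177% of all tested tiles were called), for 135 CpGs with reads of both kinds (0.0997% of all), for 8 gene regions (0% of all) and for 7 start windows (0.0905% of all). At an unadjusted p under 0.05, 3 of 27 tiles passed in the logistic model, against a background of 6.32%. So did 3 of 135 CpGs (background 5.62%), 2 of 7 start windows (6.86%) and, in limma, 0 of 8 gene regions (5.11%). The passing tiles of Sox8 and Sox4 hold the same CpGs as these 2 windows, so the counts repeat the same values. Of the 27 tiles, 12 were higher and 15 lower with restriction, with a median difference of -0.0155 points, and the median over all tiles was -0.0116 points. None of the 27 tiles had groups that did not overlap, against 2.26% of all tiles, and neither did any of the 8 regions (2.55% of all) or 7 windows (1.69% of all). Groups cannot separate where both hold a library without a methylated read. Of the 27 tiles, 21 were below 1%, against 48.3% of all tiles, so these shares compare units of unlike level. The limma intervals of the region differences describe unweighted means of CpGs with at least 10 reads, and do not exclude larger effects. Other choices gave some differences outside them. Sox4 was at -1.27 points with summed reads (interval -0.241 to 0.455), and Sox9 at -0.420 with at least 5 reads (-0.228 to 0.292). Sox10, at -5.71 points with summed reads, stayed inside its own. For Sox12 and the 4 genes below it in level the widest interval was that of Sox12, from -0.486 to 0.671 points. For Sox10 the interval went down to -8.08 points.

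**Figure D4:**
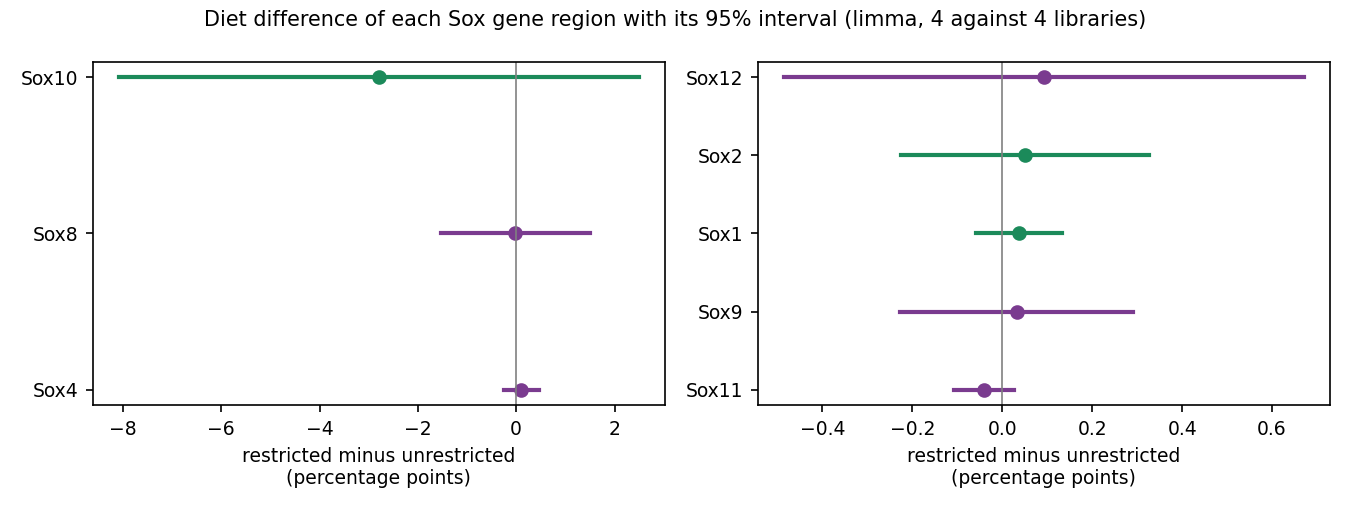
Points give the difference in mean methylation between restricted and unrestricted libraries (x axis, percentage points) for each Sox gene region (y axis), and lines its 95% interval from limma with 4 libraries a group; purple is the kidney set and green the neural set. The panels differ in scale, and all 8 intervals include 0.

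The 2 start windows with an unadjusted p under 0.05 were those of Sox8 and Sox4, both near 0. A start window is the stretch of 1 kb on each side of the gene start. That of Sox8 had 0.195, 0.687, 0.238 and 0% in the restricted libraries and 0 in all unrestricted ones. This was 4 methylated of 1521 calls against 0 of 1897. Calls are reads summed over the CpGs, so a read counts once for each CpG it covers. With each call taken as independent, 0 of 1897 allows up to 0.158% (3 calls of the total). Linked calls would make this limit too low. The Sox4 window had 0.0749, 0, 0.156 and 0.167% in the restricted libraries and again 0 in all unrestricted ones. There, 3 of 3081 calls stood against 0 of 4455, which allows up to 0.0673% under the same assumption. The groups overlapped at 0 in both, the adjusted p in the logistic model was 0.690, and the exact permutation p was 0.143. In the tiles of the same CpGs, the spread that the logistic model allowed between libraries was that of counting alone. The logistic p there does not measure the spread between libraries, and the permutation p does. Mitochondrial DNA, which carries little CpG methylation, had 0.0242 to 0.0854% methylated calls in restricted and 0.0221 to 0.0695% in unrestricted libraries. Restricted library 2 had the highest mitochondrial value and the highest value in the Sox8 window but 0 in the Sox4 window, where restricted library 4, at 0.0242% in mitochondrial DNA, was the highest. These ranks rest on few calls, with 3 methylated calls in the Sox4 window and 2 of 8262 in the mitochondrial DNA of restricted library 4. The part of unconverted cytosines in these differences was not tested.

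The start windows of the other genes showed the same low levels. Sox12 (38 CpGs) was at 0.0106% ± 0.0212 in restricted and 0.0555% ± 0.0429 in unrestricted libraries, Sox11 (94 CpGs) at 0.0163% ± 0.0194 and 0.0650% ± 0.0677, and Sox2 (41 CpGs) at 0.205% ± 0.176 and 0.158% ± 0.0832 (SD, n = 4 each). For Sox9 and Sox10, whose start the tables did not give, a window of 1.5 kb at the gene end richer in CpGs was used. That of Sox9 was at 0.0365% ± 0.0730 and 0.0604% ± 0.0705, and that of Sox10 at 5.61% ± 2.72 and 5.36% ± 1.86 (SD, n = 4 each). The Sox10 window was thus the only measured one above 1%, with 5 CpGs. Of all 13272 measured windows, 83.5% were below 1%.

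Among the other Sox genes, 11 of 13 had a measured region and none was called for diet. The highest was Sox5, a SoxD gene that acts with Sox9 in cartilage, at 51.0%. The smallest p was that of Sox21, a SoxB2 gene, with 0.124% ± 0.0453 and 0.235% ± 0.0829 (SD, n = 4 each, limma adjusted p = 0.914). The long RNA gene Sox2ot, which contains Sox2, stood at 5.52% ± 0.290 and 5.29% ± 0.0952 (SD, n = 4 each). No region was called among 14 targets and partners of SoxE genes in kidney, 13 genes acting with SoxB1, 15 measured genes acting with SoxE in neural crest, glia and cartilage, and 7 measured genes of nephron progenitor identity. Start windows of these lists gave 0 calls as well. The median region levels of the 4 lists were 2.75, 0.613, 4.83 and 1.56%. The smallest p among regions of each list belonged to Ret (adjusted p = 0.914), Klf4 (0.914), Foxd3 (0.870) and Wt1 (0.914), all from limma.

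The label of the cells could be checked on methylation only. Start windows of 4 measured nephron progenitor markers had a median of 0.0495%, with Six2 the highest at 0.131%. Those of 4 ureteric bud markers had a median of 0.274%, of 3 stroma markers 0.0487% and of 3 neural crest and neuron markers 0.168%. Among blood markers, Tal1 alone was measured, at 0.246%, and no start window of the endothelium markers was. By gene region, the 4 endothelium markers had a median of 46.7% (22.9 to 78.0%, on 3 to 15 CpGs). The region medians of the other lists ran from 0.561 to 2.65%, although Ret (67.6%), Ptprc (51.8%) and Meox1 (32.2%) were high among them. Low methylation at the start windows that were measured does not separate these cell types, so no cell type was named from it. Read counts summed over all listed cytosines ran from 16045992 to 37305007 per library, and the median shared CpG had 20 to 44 reads. A read counts once for each cytosine it covers, so these sums are not numbers of sequenced reads. Weighting CpGs by their reads shifted the mean level of restricted library 1 by -2.24 points and of restricted library 2 by -3.28 points, and that of the other 6 libraries by -0.575 to 0.817 points. Gene region levels were therefore taken as unweighted means. With summed reads, the diet difference of Sox4 turned from 0.107 to -1.27 points and that of the kidney set from 0.0341 to -0.614 points. Library shifts of this kind move with part of the restricted group, and their part in the other differences was not tested.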

How the data were processed

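RRBS libraries of 4 calorie-restricted and 4 unrestricted groups were used, and groups and replicate numbers came from the sample labels. The genes, lists and tests were chosen with earlier results of these data known. Bismark 0.13.1, methylKit, Trim Galore 0.3.3, FastQC, cutadapt and the build mm10 are listed in the submitters' processing notes, without settings. The authors deposited, for each cytosine, the count of reads and the percent of them called methylated. The product of count and percent, rounded, gave the methylated reads (at most 0.0488 from a whole number up to 1000 reads), and the strands of each CpG were added. Sex chromosomes were left out. The upper limits from a count of 0 cover counting error only, since PCR copies cannot be removed in RRBS, and the intervals of gene-region differences come from the spread between libraries in limma.

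Tiles, CpGs and start windows were tested in a logistic model of methylated among all reads, with a likelihood-ratio F test and a dispersion moderated across units and not under 1. For a unit at this floor, the p-value rests on counting error, with the reads of its CpGs taken as independent. Gene regions with at least 3 CpGs were tested with limma 3.58.1 (R 4.3.3, variance trend) on the mean CpG level. All p-values were adjusted by Benjamini-Hochberg over every unit tested in the genome. Units with no methylated or no unmethylated read were not tested, which left 333 member CpGs without a test. The text names all 8 genes, their tiles of smallest p and of highest level, their CpGs of smallest p, any called unit, the 3 genes most like the member of highest level, and the gene of smallest p in each list. The tests were tried on simulated data with known differences. The changed tiles and gene regions were drawn from those of intermediate level only. Over 36513 simulated tiles, differences of 10 points were recovered in 3% and of 20 points in 22% of 100 changed tiles each. Single tiles of intermediate level thus had little power at the spread between libraries that was simulated. That spread was a set value and was not estimated from these data, so the power in these data may differ. Over 19429 simulated gene regions, 5 points were recovered in 16% and 10 points in 39%. There, the set spread was drawn for each CpG separately. Of the 27 member tiles, 21 were below 1%, and the simulation does not describe the power for units near 0.

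Gene positions came from a RefSeq table and starts from its promoter table (GRCm38.p6). All 79519 measured CpGs inside 31396 promoter sequences fell on a CG. Exons, introns and repeats were not used here. Correlations of deviations between libraries of the same number were 0.0242, -0.0995, -0.0412 and 0.0299, so the numbers were not taken as pairs. Alternatives were the coverage minimum and maximum, tile size, flank, window and CpG number, another test, unmoderated dispersion, summed reads, the replicate block and leaving out libraries.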

Additional observations from a re-analysis of the deposited data

Results flagged for a closer look

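Of 56 groups of 4 libraries examined (region, start-window and named-tile levels), 7 held a library whose gap to the next exceeded Dixon's limit. Chance flags about 1 in 20 groups of evenly spread values, but this rate does not apply to 6 of the 7, where the other 3 libraries had no methylated read and any methylated read in the fourth exceeds the limit. For Sox11, unrestricted library 1 had a region level of 0.127%, and the other unrestricted libraries 0.0260 to 0.0389%. In the Sox11 tile from 27339001, unrestricted library 2 stood at 0.952%. Sox9 had such a library in its window, at 0.146% in restricted library 2, in the tile from 112782001, at 0.185% in unrestricted library 1, and in the tile from 112783001, at 1.11% in unrestricted library 2. For Sox12, restricted library 1 stood at 0.0425% in the start window and, from the same CpGs, at 0.0425% in the tile from 152398001.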

How the results depend on the processing

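No tile, CpG, start window or gene region of the 8 genes was called in any alternative run, and each leave-one-out count was 0 as well. The kidney set minus the neural set kept its sign but was -3.60 points with at least 5 reads, -8.49 with summed reads and -6.24 without flanks, and ran from -11.7 to -11.3 when 1 library was left out. With at least 20 reads Sox8 had fewer than 3 CpGs, so no contrast of sets was possible. The diet difference of the kidney set was 0.341 points without flanks and -0.614 with summed reads, with a leave-one-out range from -0.0440 to 0.107, and that of the neural set, -0.902 points, ranged from -1.41 to -0.352. Differences by gene region changed sign as follows. With at least 5 reads they were -0.0824 (Sox1), 0.0952 (Sox8), -0.420 (Sox9) and 0.000637 (Sox11). With at least 20 reads the start windows of Sox2 and Sox9 gave -0.200 and 0.00697. The region differences were then -0.312 (Sox1), -0.195 (Sox2), 0.245 (Sox10, over 5 CpGs at its right end only) and -0.0440 (Sox12). With summed reads they were -0.00783 (Sox1), -1.27 (Sox4) and -0.318 (Sox12). Without flanks they were -0.0201 (Sox2) and 1.07 (Sox8), and with 10 kb flanks -0.0955 (Sox9). Without both restricted libraries 1 and 2 they were -0.0779 (Sox2), 0.248 (Sox8) and -0.165 (Sox12), and the tiles of Sox2 from 34656001 and Sox12 from 152395001 gave -0.368 and -1.08. None of these values passed a test, and the cause was not tested.

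Leaving out 1 library in turn, the region difference ran from -0.00694 to 0.144 in Sox2, -0.485 to 0.357 in Sox8, -0.0551 to 0.107 in Sox9 and -0.0844 to 0.266 in Sox12. The start windows ran from -0.00273 to 0.116 in Sox2, -0.0604 to 0.000460 in Sox9 and -0.654 to 1.06 in Sox10, and the tiles of Sox9 from 112783001 and Sox12 from 152395001 from -0.185 to 0.473 and -0.479 to 1.84.

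Calls over the whole data set were 6 tiles, 191 CpGs, 11 start windows and 0 gene regions. They came to 2 tiles and 18 windows with at least 5 reads and to 2 tiles and 103 CpGs with at least 20. limma on log2 ratios of reads and the logistic model without moderation each gave 0 calls of these 3 units, with 2173 and 828 tiles at an unadjusted p under 0.05. Without restricted libraries 1 and 2 there were 673 CpGs, 6 windows and 2 regions. Leaving out 1 library gave 0 to 24 tiles, 134 to 746 CpGs, 8 to 41 windows and 0 to 1 regions.

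With the replicate block, the tiles, CpGs and windows called came to 3, 47 and 1, the member calls stayed at 0, and the region difference of Sox10 was -2.79 points (limma adjusted p = 0.902). This blocked fit made 9 false calls in the simulated tiles, so its calls are less secure.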

Other observations

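The CpGs that had 10 reads in only some libraries, and so entered no test, had a mean level of 41.9% over 56 CpGs in Sox8 and of 27.8% over 56 CpGs in Sox10. In Sox9 the mean was 1.36% over 60 CpGs, in Sox1 0.574% over 53, in Sox12 0.480% over 110, in Sox2 0.283% over 22, in Sox11 0.1305% over 53 and in Sox4 0.0524% over 75. In Sox8 and Sox10 they were split between low and high CpGs, with 29 and 37 below 20% and 22 and 13 at 80% or more.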
